A study of Mus musculus with 18 samples.

Results

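The genes that mark and run the fat cell were followed in mouse quadriceps muscle. They are 10 genes taken by symbol from the per-library expression tables, out of 48709 rows listed and 31665 with an exon length above 0, and all 10 were present. The study asked how the muscle transcriptome of a congenital muscular dystrophy model differs from that of healthy mice, and how it responds to TD139, an inhibitor of the sugar-binding protein galectin-3. The mutant is dyW (strain B6.129S1(Cg)-Lama2tm1Eeng/J), which lacks a working copy of Lama2, the gene for the laminin alpha 2 chain, and the wild type (WT) is C57BL/6J. There were 18 libraries, each from a mouse with its own animal number. The untreated cohort held 4 dyW and 3 WT libraries whose labels give an age of 5 weeks and name no treatment. The treatment cohort held 3 dyW TD139, 3 dyW PBS, 2 WT TD139 and 3 WT PBS libraries whose labels give an age of 3 weeks, although the collection protocol gives 5 weeks for all muscles. The treatments are known from the library names, and no dose, route or duration of TD139 is given in the sources used here. Each group held 1 female library, and the rest were male.

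Adipocytes store triglyceride in a large lipid droplet and release it as fatty acids when adrenergic signals call for it. The nuclear receptor Pparg, with C/EBP factors, switches on the genes of the mature fat cell, which also secretes hormones such as adiponectin (Adipoq) and leptin (Lep). In skeletal muscle, adipocytes lie between fibres and bundles and can accumulate in dystrophic muscle, where fibro-adipogenic progenitors of the connective tissue can give rise to them. Brown and beige adipocytes differ in burning fatty acids for heat through the mitochondrial protein Ucp1. Not every one of the 10 genes is private to fat cells, since endothelial cells and macrophages also make Fabp4, and muscle fibres also make Lpl.

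Promoter sequences were held for 7 of the 10 genes in the RefSeq table of build GRCm38.p6, each running from 250 bases before to 50 bases after a gene start. Those of 4 genes are shown, a pair whose levels followed each other closely across the libraries (Adipoq and Cfd) and the pair least correlated with Adipoq over all 18 libraries (Lep and Ucp1). Capitals mark matches on either strand to 4 sets of letters, and all 4 windows are on the plus strand, 5′ to 3′. The first set was TATAAA, which is known as the TATA box. The second was CCAAT. The third was AGGTCA, a core site of nuclear receptors, and the last was TTGCNNAA, a core resembling the sites of C/EBP factors.
Adipoq, chr16:23146286-23146585: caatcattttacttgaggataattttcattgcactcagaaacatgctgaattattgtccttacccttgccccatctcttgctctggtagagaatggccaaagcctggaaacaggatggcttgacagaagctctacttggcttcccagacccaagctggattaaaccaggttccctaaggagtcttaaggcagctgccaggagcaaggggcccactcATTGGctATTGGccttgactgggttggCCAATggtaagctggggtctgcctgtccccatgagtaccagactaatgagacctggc
Cfd, chr10:79890603-79890902: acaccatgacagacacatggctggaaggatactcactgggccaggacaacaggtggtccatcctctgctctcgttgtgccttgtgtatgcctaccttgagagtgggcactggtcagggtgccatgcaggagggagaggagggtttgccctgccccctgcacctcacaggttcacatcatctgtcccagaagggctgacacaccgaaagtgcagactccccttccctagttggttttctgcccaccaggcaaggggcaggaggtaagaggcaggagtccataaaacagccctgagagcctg
Lep, chr6:29059971-29060270: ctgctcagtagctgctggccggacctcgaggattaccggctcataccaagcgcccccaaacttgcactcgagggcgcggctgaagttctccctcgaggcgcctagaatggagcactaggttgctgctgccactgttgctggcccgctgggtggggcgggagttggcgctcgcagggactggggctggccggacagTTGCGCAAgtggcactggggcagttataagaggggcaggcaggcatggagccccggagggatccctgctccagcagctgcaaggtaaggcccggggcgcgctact
Ucp1, chr8:83290098-83290397: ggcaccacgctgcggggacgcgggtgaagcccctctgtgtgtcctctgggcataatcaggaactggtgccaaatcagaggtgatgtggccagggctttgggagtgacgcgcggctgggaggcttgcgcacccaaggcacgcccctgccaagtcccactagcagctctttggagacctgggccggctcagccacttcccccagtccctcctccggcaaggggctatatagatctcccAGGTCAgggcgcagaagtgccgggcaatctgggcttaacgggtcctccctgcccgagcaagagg
The Adipoq window held CCAAT letters at 3 places, beginning 34, 27 and 7 bases before the start, of which those nearest the start read CCAAT and the other 2 read the reverse complement. The Lep window held TTGCGCAA, a palindrome of the C/EBP-like core, beginning 55 bases before the start. The Ucp1 window held AGGTCA beginning 14 bases before the start, and the Cfd window held none of the 4 sets of letters. Such matches are common, since 37.4% of 32851 promoter windows of the same length held CCAAT, 16.3% held AGGTCA, 13.6% held TATAAA and 10.8% held TTGCNNAA, and they describe the sequence only.

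Depth ranged from 15.8 M exon reads in a dyW PBS library to 45.2 M exon reads in an untreated dyW library. Lama2, the mutated gene, read 0.545 to 1.10 RPKM (reads per kilobase of exon, scaled to the reads mapped in the library) in the 10 dyW libraries and 2.18 to 5.02 RPKM in the 8 WT libraries, so no library went against its genotype label. The RPKM values are not corrected for differences in composition. Fitted on log2(RPKM + 0.1), the median gene was 0.51 higher in untreated dyW than in untreated WT, against 0.03 in the edgeR fit of the counts, and the genes past an adjusted p of 0.05 split into 7636 higher and 1293 lower on that scale, against 3671 higher and 3724 lower in edgeR. Fold changes below are log2 values from edgeR, relative to its scaling, with their standard error (SE), and levels are RPKM. Of 4 keratins of skin, Krt5 had no read in any library and Krt14 and Krt15 had reads in 1 library each, whereas Krt10 had 41 to 133 reads, or 0.627 to 1.39 RPKM, in every library.

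Mean levels of the fat cell genes were higher in untreated dyW than in untreated WT muscle, but the mice within a group differed widely. All 10 genes had a positive fitted fold change, with a median of 1.76 on the log2 scale against 0.03 over all genes tested. Only Fabp4 and Cfd, 2 of 10, rose by the edgeR quasi-likelihood test at an adjusted p under 0.05, while 24.7% of all 14846 genes tested were called higher and 49.8% were called in either direction, so the count of calls lies under the background. Untreated dyW replicates 1 and 2 carried most of the difference. The reads of the 10 genes together made up 0.572% of exon reads in each of these 2 libraries, 0.222% in replicate 3 and 0.128% in replicate 4 of untreated dyW, against 0.154%, 0.0428% and 0.0641% in untreated WT. In whole muscle, more fat cells and more RNA of these genes per fat cell cannot be told apart.

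**Figure D1:**
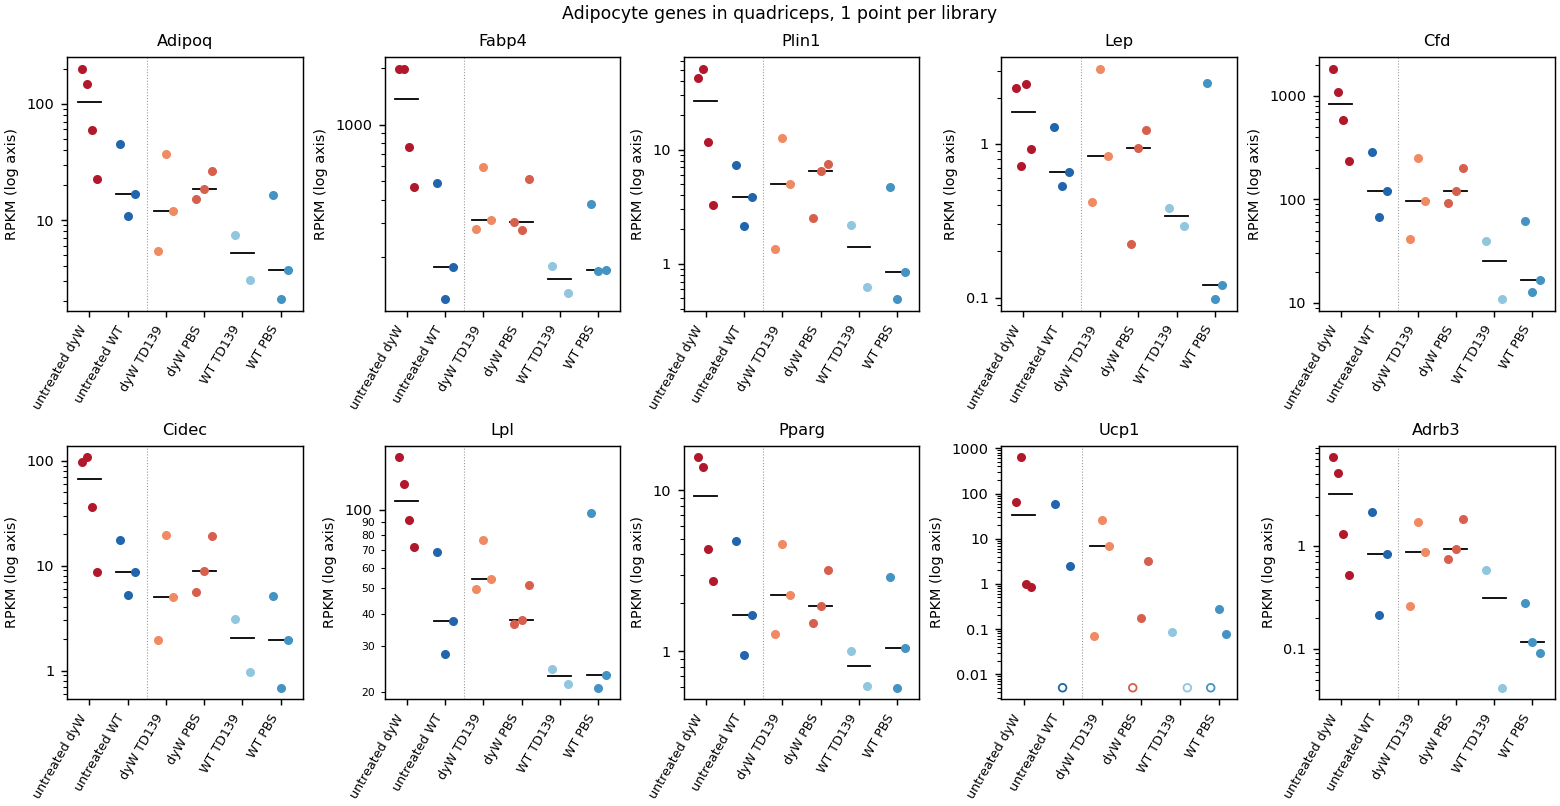
RPKM of each of the 10 adipocyte genes on a log axis, with 1 point per library, groups side by side, the median of a group as a bar and the treatment cohort right of the dotted line. Open circles stand for libraries with no Ucp1 read, drawn at the foot of the axis, and groups with such a library have no bar. Untreated dyW spreads over the widest range for Adipoq, from 22.4 to 200 RPKM.

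Pparg, the regulator of fat cell differentiation, lies on chromosome 6 (mm10, 115360951 to 115490399, plus strand). Its level was 16.1, 14.1, 4.31 and 2.74 RPKM in untreated dyW, against 4.86, 0.945 and 1.69 RPKM in untreated WT. Untreated dyW replicates 1 and 2 stood above every WT library, replicates 3 and 4 below the highest WT library. The log2 fold change was 1.44 ± 0.72 (SE; edgeR adjusted p = 0.128). With replicates 1 and 2 both left out it was -0.044, so the positive value rested on those 2 libraries.

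For both genes of lipid droplet proteins, replicates 1, 2 and 3 of untreated dyW stood above every untreated WT library. Plin1, which coats the droplet and gates its breakdown (chromosome 7, 79720218 to 79732903, minus strand), had 42.1, 51.3, 11.6 and 3.28 RPKM in untreated dyW, against 7.34, 2.14 and 3.88 RPKM in untreated WT. Untreated dyW replicate 4 lay within the WT range. Its log2 fold change was 2.13 ± 0.86 (SE; edgeR adjusted p = 0.0681). Cidec, which fuses droplets in white fat cells (chromosome 6, 113424634 to 113435760, minus strand), had 96.7, 108, 36.3 and 8.70 RPKM in untreated dyW, against 17.6, 5.21 and 8.72 RPKM in untreated WT. Replicate 4 again overlapped WT and the other 3 dyW libraries did not. The fold change of Cidec was 2.09 ± 0.79 (SE; edgeR adjusted p = 0.0534), past the threshold with DESeq2 (adjusted p = 0.0380).

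Of the genes that bring in and carry fatty acids, Fabp4 was the more abundant. This cytosolic fatty acid carrier (chromosome 3, 10204088 to 10208576, minus strand) had 1964, 1977, 759 and 468 RPKM in untreated dyW, against 488, 119 and 176 RPKM in untreated WT. Untreated dyW replicate 4 lay just under the highest WT library. Fabp4 rose by 1.84 ± 0.63 (SE; edgeR adjusted p = 0.0388). Lpl, the lipase that frees fatty acids from circulating lipoproteins (chromosome 8, 68880491 to 68907448, plus strand), had 159, 125, 91.7 and 71.8 RPKM in untreated dyW, against 69.3, 28.0 and 37.6 RPKM in untreated WT. It was the 1 of 10 genes whose groups did not overlap in RPKM, a pattern shown by 51.3% of all genes tested. On the edgeR scale the fold change of Lpl was 0.82 ± 0.35 (SE; adjusted p = 0.0827), and it passed with DESeq2 (adjusted p = 0.0289).

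Among the secreted products, Adipoq and Cfd spanned wide ranges in untreated dyW and Lep did not separate the genotypes. Adipoq, the insulin-sensitising hormone of fat (chromosome 16, 23146536 to 23158028, plus strand), had 200, 149, 58.9 and 22.4 RPKM in untreated dyW, against 44.7, 10.9 and 16.7 RPKM in untreated WT. Replicates 1, 2 and 3 of untreated dyW exceeded all WT libraries. The fold change was 1.69 ± 0.74 (SE; edgeR adjusted p = 0.0884). Cfd, or adipsin, a protease of the alternative complement pathway (chromosome 10, 79890853 to 79892656, plus strand), had 1839, 1086, 590 and 233 RPKM in untreated dyW, against 287, 67.5 and 122 RPKM in untreated WT. It rose by 2.10 ± 0.72 (SE; edgeR adjusted p = 0.0379), with replicate 4 of untreated dyW inside the WT range.

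Lep, the satiety hormone whose level follows fat mass (chromosome 6, 29060220 to 29073877, plus strand), was low throughout, at 2.31, 0.719, 2.45 and 0.930 RPKM in untreated dyW, against 1.30, 0.534 and 0.656 RPKM in untreated WT. The high Lep libraries of untreated dyW were replicates 1 and 3, so that replicate 2, which was among the highest for the other genes, sat within the WT range. The fold change was 0.43 ± 0.47 (SE; edgeR adjusted p = 0.465).

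The heat-producing and adrenergic genes varied most between mice. Ucp1, the uncoupling protein of brown and beige fat (chromosome 8, 83290352 to 83298452, plus strand), had 66.1, 638, 1.01 and 0.865 RPKM in untreated dyW, against 57.7, 0 and 2.53 RPKM in untreated WT, where 0 reads allow a level of up to 0.0483 RPKM, the value of 3 reads. Replicate 1 of dyW and replicate 1 of WT lay close together, and a single dyW library stood far above both. The fold change of 2.73 ± 2.35 (SE; edgeR adjusted p = 0.355) became -0.14 without untreated dyW replicate 2. Adrb3, the adrenergic receptor that triggers lipolysis in rodent fat (chromosome 8, 27225776 to 27250616, minus strand), had 7.28, 5.08, 1.32 and 0.520 RPKM in untreated dyW, against 2.16, 0.211 and 0.828 RPKM in untreated WT. Replicates 3 and 4 of untreated dyW lay within the WT range. Its fold change was 1.29 ± 0.94 (SE; edgeR adjusted p = 0.275), and -0.76 without untreated dyW replicates 1 and 2. In GENCODE, 839 of the 3376 exon bases of Adrb3 are shared with the antisense gene Gm45470, and whether the authors counted by strand is not given in the sources used here.

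**Figure D2:**
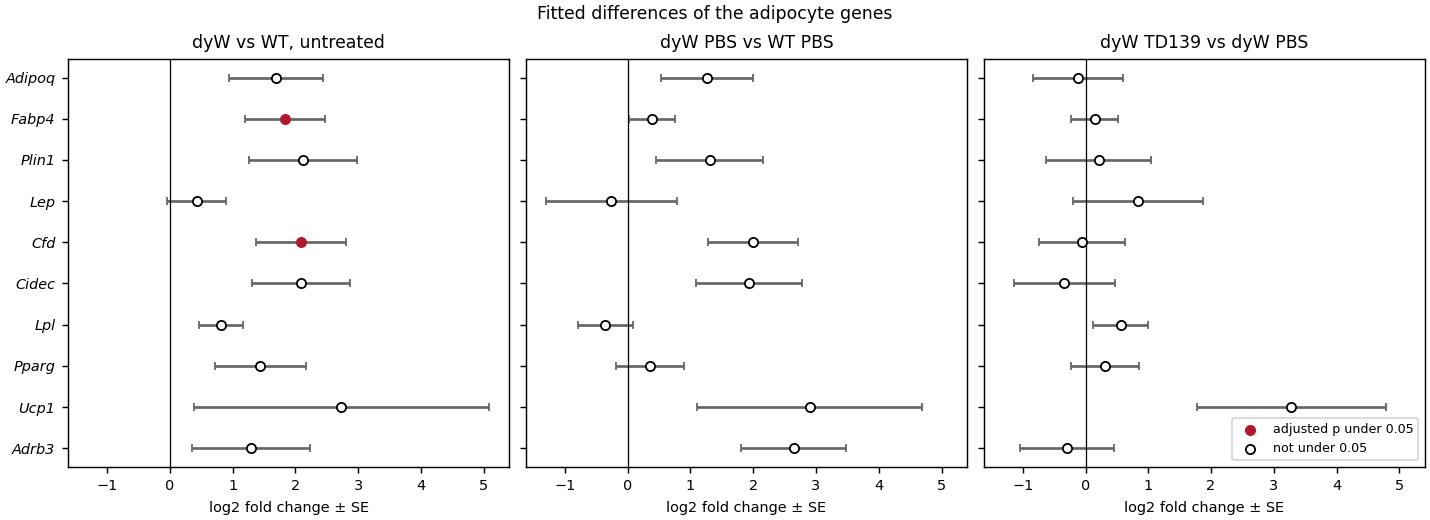
Log2 fold change (points) and SE (bars) of the 10 genes in 3 comparisons fitted with edgeR, with filled points for an adjusted p under 0.05. Fabp4 (1.84) and Cfd (2.10) in the untreated comparison are the filled points, and Ucp1 has the widest bar there, with an SE of 2.35.

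The 2 calls depended on which libraries and terms entered the fit. With untreated dyW replicates 1 and 2 both left out, a setting chosen after seeing the data, 0 of 10 genes were called, with a fold change of 0.69 for Fabp4 and 0.81 for Cfd (edgeR adjusted p = 0.291 and 0.257). Leaving out dyW replicate 1, dyW replicate 2, WT replicate 2 or WT replicate 3 of the untreated cohort alone also left 0 calls. Without untreated dyW replicate 4 there were 6, which added Adipoq, Plin1, Cidec and Lpl. With the sex label as a term there were 0, with Fabp4 at 2.00 (edgeR adjusted p = 0.0550) and Cfd at 2.23 (edgeR adjusted p = 0.0560). Among male libraries, 3 dyW against 2 WT, every dyW library was above every WT library for 6 of 10 genes, namely Adipoq, Fabp4, Lep, Cfd, Lpl and Pparg, against 61.3% of all genes tested. In the female pair, 1 library each, dyW was above WT for 7 of 10, all but Pparg, Ucp1 and Adrb3, and for 74.7% of all genes tested. In the authors' deposited table of dyW against WT, 7 of 10 genes had an FDR-adjusted p under 0.05, namely Fabp4, Plin1, Cfd, Cidec, Adipoq, Pparg and Lpl, where 32.0% of the genes with a p-value passed. The fold changes in the authors' deposited table were close to those fitted here, such as 1.81 for Fabp4 and 2.07 for Cfd, and its test is not given in the sources used here.

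Markers of other cell types also differed between untreated dyW and untreated WT muscle. The summed level of 8 endothelial genes was 87.2 to 115 RPKM in untreated dyW and 43.5 to 56.2 RPKM in untreated WT, and 5 of the 8 rose. That of 8 macrophage genes was 395 to 514 RPKM in untreated dyW and 57.2 to 90.9 RPKM in untreated WT, with 5 of 8 higher. Genes of fibro-adipogenic progenitors summed to 509 to 757 RPKM in untreated dyW and 253 to 394 RPKM in untreated WT, with 2 of 8 higher and 1 lower. The 8 fast myofibre genes summed to 42288 to 52952 RPKM in untreated dyW and 60261 to 70122 RPKM in untreated WT, with 7 of 8 lower in dyW. Of all genes tested, 24.7% were called higher and 25.1% lower in this comparison. Within untreated dyW, replicate 1, with the highest Adipoq, had the lowest endothelial (87.2 RPKM) and progenitor (509 RPKM) sums. Replicate 2, also high in Adipoq (149 RPKM), had an endothelial sum of 109 RPKM, between those of replicates 4 (107 RPKM) and 3 (115 RPKM). Its progenitor sum was 630 RPKM, against 757 RPKM in replicate 3 and 700 RPKM in replicate 4. The part of these cell types in the differences of Fabp4 and Lpl was not tested.

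**Figure D3:**
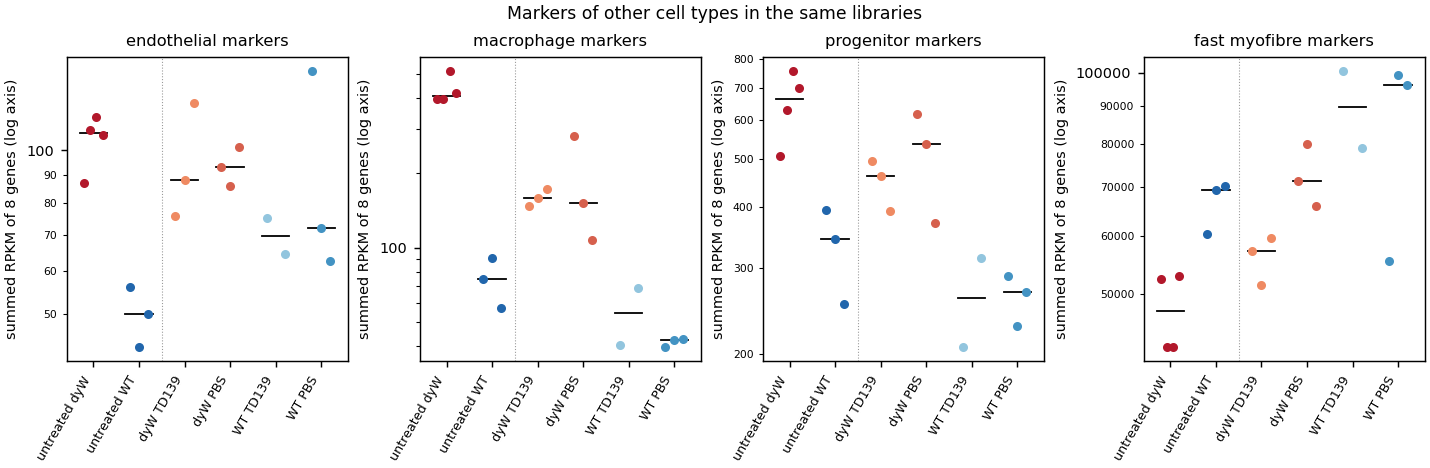
Summed RPKM of 8 marker genes each for endothelium, macrophages, fibro-adipogenic progenitors and fast myofibres, on a log axis with 1 point per library and the group median as a bar. Untreated dyW lies at 395 to 514 RPKM for the macrophage genes, above untreated WT at 57.2 to 90.9 RPKM, and WT PBS replicate 1 stands out in the endothelial panel at 140 RPKM.

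In the treatment cohort, dyW PBS muscle was compared with WT PBS muscle, 3 libraries each. No gene of the 10 was called by edgeR, against 2.68% of the 15331 genes tested, and DESeq2 and limma called 0 as well. With an unadjusted p under 0.05 there were 3 of the 10, Adrb3, Cfd and Cidec, against 15.1% of all genes, and the same 3 had every dyW PBS library above every WT PBS library, as did 23.2% of all genes tested. The median fold change of the 10 genes was 1.28 against -0.03 over all genes, with 8 positive and 2 negative.

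Cfd had 93.0, 120 and 201 RPKM in dyW PBS, against 61.8, 12.8 and 16.5 RPKM in WT PBS, for a log2 fold change of 2.00 ± 0.72 (SE; edgeR adjusted p = 0.195). Cidec had 5.55, 8.84 and 19.1 RPKM in dyW PBS, against 5.16, 0.685 and 1.96 RPKM in WT PBS, for 1.93 ± 0.85 (SE; edgeR adjusted p = 0.307). Adrb3 had 0.754, 0.940 and 1.83 RPKM in dyW PBS, against 0.279, 0.117 and 0.0904 RPKM in WT PBS, for 2.64 ± 0.83 (SE; edgeR adjusted p = 0.135). For each of these genes WT PBS replicate 1 was the highest of its group and still below the lowest dyW PBS library.

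Adipoq, with 15.2, 18.7 and 26.4 RPKM in dyW PBS against 16.4, 2.09 and 3.74 RPKM in WT PBS, overlapped through that same WT library. Its fold change was 1.27 ± 0.73 (SE; edgeR adjusted p = 0.458). Plin1 (1.30 ± 0.85), Fabp4 (0.39 ± 0.37), Pparg (0.36 ± 0.55) and Ucp1 (2.90 ± 1.79) were also positive and overlapped, with edgeR adjusted p from 0.491 to 0.817. Ucp1 had 0, 0.179 and 3.14 RPKM in dyW PBS, against 0, 0.281 and 0.0777 RPKM in WT PBS, so that dyW PBS replicate 3 stood above the other 5 libraries.

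Lep and Lpl had the negative values, and both changed sign without WT PBS replicate 1. Lpl had 36.5, 37.8 and 51.4 RPKM in dyW PBS, against 97.1, 20.8 and 23.3 RPKM in WT PBS. Lep had 0.224, 0.939 and 1.23 RPKM in dyW PBS, against 2.51, 0.0980 and 0.121 RPKM in WT PBS. That WT library was the highest of the 6 for Lpl and for Lep, and it also had the highest endothelial sum of all 18 libraries (140 RPKM) and the lowest fast myofibre sum of its group (55491 RPKM, against 96364 and 99215 RPKM). The fold changes were -0.36 ± 0.44 for Lpl and -0.26 ± 1.04 for Lep (SE; edgeR adjusted p = 0.761 and 0.944), and without WT PBS replicate 1 they were 0.56 and 2.55 (edgeR adjusted p = 0.248 and 0.155), with 0 of 10 genes called.

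Under PBS the macrophage and progenitor sums of dyW and WT did not overlap, and the endothelial and fast myofibre sums did. Macrophage genes summed to 108 to 281 RPKM in dyW PBS and 39.6 to 43.0 RPKM in WT PBS, with 5 of 8 called higher, and progenitor genes to 371 to 618 RPKM in dyW PBS and 229 to 289 RPKM in WT PBS, with 1 of 8 called higher, where 2.4% of all genes were called higher and 0.28% lower. Endothelial genes summed to 86.0 to 101 RPKM in dyW PBS and 62.6 to 140 RPKM in WT PBS, and fast myofibre genes to 65870 to 80081 RPKM in dyW PBS and 55491 to 99215 RPKM in WT PBS, with 0 of 8 called in each. Among male libraries, 2 each, every dyW PBS library was above every WT PBS library for Cfd, Cidec and Adrb3, 3 of 10 genes, against 31.3% of all genes tested. In the female pair, 1 library each, dyW PBS was above WT PBS for 10 of 10 genes and for 80.4% of all genes tested. Whether the genotype difference itself changed between the cohorts was fitted on all 18 libraries. The cohorts differ both in age label and in PBS, which that fit cannot separate. None of the 10 genes passed, against 1.72% of 15771 genes, and 0 had an unadjusted p under 0.05, against 22.7% of all genes, with 0 of the 10 also called by DESeq2 and by limma. The smallest p was that of Fabp4, whose genotype difference was larger by 1.44 ± 0.76 (SE; edgeR adjusted p = 0.272) in the untreated than in the PBS cohort.

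No difference in the fat cell genes between dyW TD139 and dyW PBS muscle passed the test. None of the 10 was called in dyW TD139 against dyW PBS by edgeR, and the share of all genes called was 0%. There were 0 with an unadjusted p under 0.05, against 3.8% of all genes, and 0 called by DESeq2 or limma. Adipoq had 5.41, 37.0 and 12.03 RPKM in dyW TD139, against 15.2, 18.7 and 26.4 RPKM in dyW PBS. Both the lowest and the highest library were TD139 ones, and the fold change was -0.12 ± 0.71 (SE; edgeR adjusted p = 0.982), with a 95% interval of -1.68 to 1.44 that does not exclude a change in either direction. The 10 fold changes ran from -0.34 for Cidec to 3.28 for Ucp1, with a median of 0.18, 6 positive and 4 negative. This comparison shares its dyW PBS libraries with the genotype comparison under PBS.

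Ucp1 had the smallest p of the 10 under TD139. It had 0.0714, 26.5 and 6.94 RPKM in dyW TD139, from 5, 1822 and 481 reads, against 0, 0.179 and 3.14 RPKM in dyW PBS, from 0, 12 and 153 reads. The 0 reads allow up to 0.106 RPKM in that shallow library, so dyW TD139 replicate 1 cannot be told from it. The fold change was 3.28 ± 1.51 (SE; unadjusted p = 0.0506, edgeR adjusted p = 0.888), with 1.56 without dyW TD139 replicate 2 and 6.61 without dyW PBS replicate 3. The authors' deposited table gives 3.29 with an FDR-adjusted p of 0.212. Lep, with 0.418, 3.09 and 0.837 RPKM in dyW TD139 against 0.224, 0.939 and 1.23 RPKM in dyW PBS, was highest of all 18 libraries in dyW TD139 replicate 2, the female of its group, and had a fold change of 0.84 ± 1.04 (SE; edgeR adjusted p = 0.901).

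In WT mice the same comparison rested on 2 TD139 and 3 PBS libraries. None of the 10 genes was called, with 0% of all genes called by edgeR, 0 of the 10 with an unadjusted p under 0.05 (1.98% of all genes), and 0 called by DESeq2 or limma. Lpl had the smallest p. It had 24.5 and 21.5 RPKM in WT TD139, against 97.1, 20.8 and 23.3 RPKM in WT PBS, for a fold change of -0.85 ± 0.50 (SE; edgeR adjusted p = 1), and 0.065 without WT PBS replicate 1. An interaction term, for whether TD139 acted differently in dyW than in WT, passed for none of the 10 genes and for no gene at all (0%), with 0 of the 10 at an unadjusted p under 0.05 (1.92% of all genes) and 0 called by DESeq2 or limma. The smallest p of that interaction was also that of Lpl, at 1.41 ± 0.67 (SE; edgeR adjusted p = 1).

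Across the 6 groups the highest and the lowest mean levels were mostly shared, and the order of the groups between them differed from gene to gene. Untreated dyW had the highest mean for all 10 genes, and WT TD139 the lowest for 9, with Adrb3 lowest in WT PBS. The groups next to each other in these orders overlapped in 49 of 50 cases, the exception being Lpl in dyW PBS (36.5 to 51.4 RPKM) above WT TD139 (21.5 to 24.5 RPKM). Cfd, for example, averaged 937 ± 696 RPKM in untreated dyW and 159 ± 114 RPKM in untreated WT (SD, n = 4 and 3). In the treatment cohort it averaged 131 ± 110 RPKM in dyW TD139 and 138 ± 56.3 RPKM in dyW PBS (SD, n = 3 each). It averaged 25.2 ± 20.3 RPKM in WT TD139 and 30.4 ± 27.3 RPKM in WT PBS (SD, n = 2 and 3). Levels of untreated and treated groups come from cohorts with different age labels, and no test of levels between the cohorts was made. Only their genotype differences were compared, as given above.

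Single libraries set much of these means. Untreated dyW replicate 1 was the highest of 18 libraries for 5 genes and replicate 2 for 4, and each was among the top 3 for 9 of 10. Untreated WT replicate 1, a healthy muscle, was among the top 3 for 3 genes, whereas WT PBS replicate 2 was among the bottom 3 for 9. Over the 18 libraries Adipoq spanned 95.4-fold, Cidec 158-fold, Cfd 170-fold, Plin1 105-fold and Adrb3 174-fold. The narrower ranges were those of Lpl at 7.66-fold, Fabp4 at 16.6-fold, Pparg at 27.1-fold and Lep at 31.5-fold, and Ucp1 had 4 libraries with no read.

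Levels were also divided by Adipoq of the same library. Cidec stayed at 31.4 to 72.8 RPKM per 100 RPKM of Adipoq, a 2.32-fold range, Plin1 at 14.6 to 41.9, a 2.86-fold range, and Cfd at 356 to 1037, a 2.91-fold range. These ranges are narrow beside the 95.4-fold range of Adipoq itself. The group medians of Cfd relative to Adipoq differed, which was not tested, and its ranges under TD139 and PBS overlapped within each genotype. The median of Cfd per 100 RPKM of Adipoq was 961 in untreated dyW and 641 in untreated WT, 766 in dyW TD139 and 641 in dyW PBS, and 444 in WT TD139 and 441 in WT PBS. The lowest value in untreated dyW (730) was just above the highest in untreated WT (727). Under PBS, Cfd was at 613 to 761 in dyW and 376 to 611 in WT. Lpl, Fabp4 and Pparg were apart the other way there. Per 100 RPKM of Adipoq, Lpl was at 195 to 241 in dyW PBS and 591 to 994 in WT PBS. Fabp4 was at 1477 to 2006 and 2300 to 7967, and Pparg at 9.95 to 12.1 and 17.5 to 28.3. These separations were not set against a share of all genes. Pparg (7.31 to 28.3) and Adrb3 (1.37 to 7.74) varied 3.88-fold and 5.64-fold relative to Adipoq. Fabp4 ran from 983 per 100 RPKM of Adipoq in untreated dyW replicate 1 to 7967 in WT PBS replicate 2, the libraries with the highest and the lowest Adipoq. Lpl ran in the same way, from 79.8 in untreated dyW replicate 1 to 994 in WT PBS replicate 2, so Fabp4 and Lpl kept part of their level where Adipoq was low. Lep per 100 RPKM of Adipoq ranged from 0.484 in untreated dyW replicate 2 to 15.3 in WT PBS replicate 1, a 31.5-fold range.

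**Figure D4:**
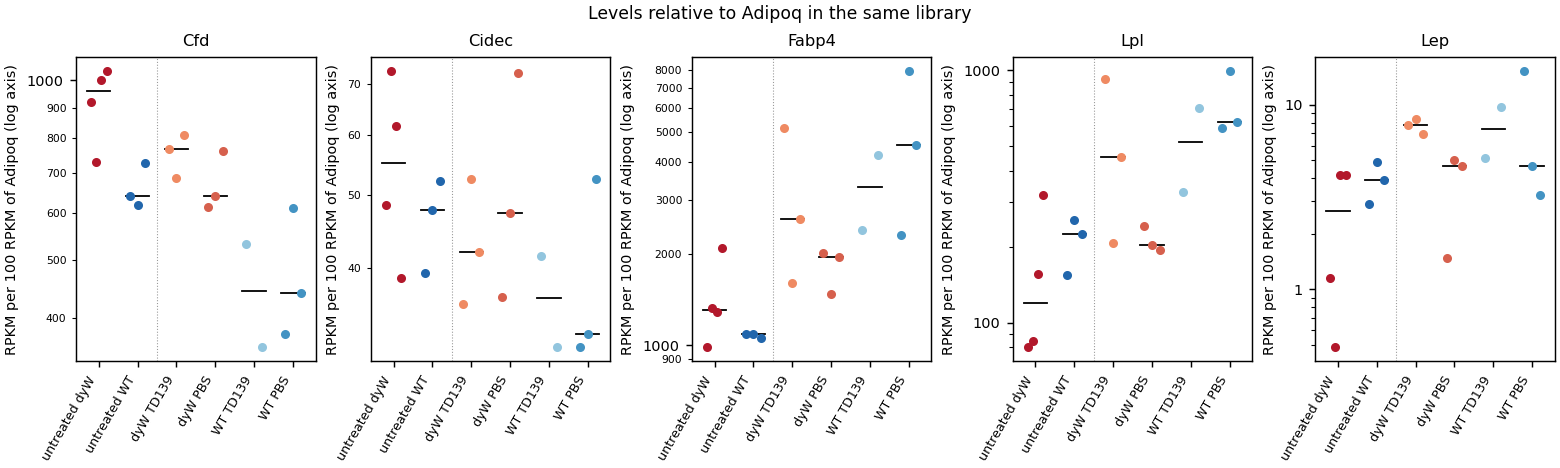
RPKM of 5 genes per 100 RPKM of Adipoq in the same library, on a log axis of its own for each gene, with 1 point per library and the group median as a bar. Cidec spans a 2.32-fold range, whereas Lpl spans 12.5-fold and Lep 31.5-fold.

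By Pearson correlation of log2 CPM (counts scaled to library size) with Adipoq over the 18 libraries, Cidec (r = 0.99), Cfd (0.98), Plin1 (0.97), Pparg (0.95) and Adrb3 (0.91) were closest, followed by Fabp4 (0.89), Lpl (0.86), Ucp1 (0.75) and Lep (0.71). These r values share the libraries, their depth and their cell mixture, and they describe this collection without a test. Within the 7 untreated libraries r was 0.98 for Cidec and 0.45 for Lep, and within the 11 of the treatment cohort it was 0.98 for Cidec and 0.82 for Lep. Lpl had an r of 0.96 in the untreated cohort and 0.69 in the treatment cohort, which holds the WT PBS library high in Lpl. Without untreated dyW replicates 1 and 2, the 2 libraries farthest from the median of Adipoq, r was 0.98 for Cidec, 0.97 for Cfd, 0.77 for Fabp4, 0.75 for Lpl and 0.59 for Ucp1. For Lep it was 0.83, above that of Fabp4 and Lpl, so the low r of Lep over all 18 libraries rested on those 2.

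Among 10858 other genes with an established symbol and a mean of at least 1 RPKM in a group, the 5 most like Adipoq were Cdo1 and Retn (r = 0.98 each), Lgals12, Tusc5 and Acvr1c (0.97 each). Cdo1 encodes cysteine dioxygenase, Retn the secreted protein resistin of rodent fat, Lgals12 a galectin of adipocyte lipid droplets, Tusc5 a protein of glucose transporter traffic in fat cells, and Acvr1c the activin receptor ALK7. Each was found in a single search over n = 18 libraries, and r stayed between 0.95 and 0.97 for the 5 without untreated dyW replicates 1 and 2. Cdo1 ranged from 14.2 to 128 RPKM in untreated dyW and from 5.59 to 30.6 RPKM in untreated WT. Retn ranged from 5.74 to 56.2 RPKM in untreated dyW and from 2.40 to 9.97 RPKM in untreated WT.

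Ucp1 did not keep to this common pattern. Its level was 429 RPKM per 100 RPKM of Adipoq in untreated dyW replicate 2, 33.1 in replicate 1, 1.71 in replicate 3 and 3.86 in replicate 4, against 129, 0 and 15.1 in untreated WT. In the treatment cohort it was 1.32, 71.4 and 57.7 in dyW TD139, against 0, 0.959 and 11.9 in dyW PBS. Mice with similar Adipoq thus differed widely in Ucp1, such as untreated dyW replicate 3 (Adipoq 58.9, Ucp1 1.01 RPKM) and untreated WT replicate 1 (Adipoq 44.7, Ucp1 57.7 RPKM).

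Other genes of brown and beige fat, a list of 10, were set beside it, and of these Cidea, Otop1 and Cox8b were chosen after their values were seen. Cidea, a droplet protein abundant in brown fat, had 49.0, 156, 4.82 and 4.57 RPKM in untreated dyW, against 12.7, 0.0905 and 1.98 RPKM in untreated WT. Otop1, a proton channel found in brown fat, had 2.17, 12.3, 0.207 and 0.129 RPKM in untreated dyW, against 0.784, 0.0153 and 0.201 RPKM in untreated WT. In both genes untreated dyW replicate 2 was highest and untreated WT replicate 1 was the highest of its group, as for Ucp1. Cox8b, a subunit of cytochrome oxidase that muscle fibres also make, had 243, 434, 567 and 564 RPKM in untreated dyW, against 434, 264 and 291 RPKM in untreated WT, an order unlike that of Ucp1. By edgeR 1 of the 10 rose in untreated dyW and 1 fell, which lies under the 24.7% and 25.1% of all genes called higher and lower. Dio2, the deiodinase that activates thyroid hormone, rose by 1.87 ± 0.45 (SE; edgeR adjusted p = 0.00917). It had 1.15, 3.03, 3.94 and 2.84 RPKM in untreated dyW, against 0.919, 0.353 and 0.289 RPKM in untreated WT. Within untreated dyW that order was unlike the order of Ucp1. Ppargc1a, the coactivator of mitochondrial genes, which muscle makes as well, fell by 1.15 ± 0.16 (SE; edgeR adjusted p = 6.86e-04). Under PBS, 0 of 9 tested were called, with the smallest p for Dio2 (1.30 ± 0.37; edgeR adjusted p = 0.0899) and Cox8b (-0.63 ± 0.25; edgeR adjusted p = 0.252).

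**Figure D5:**
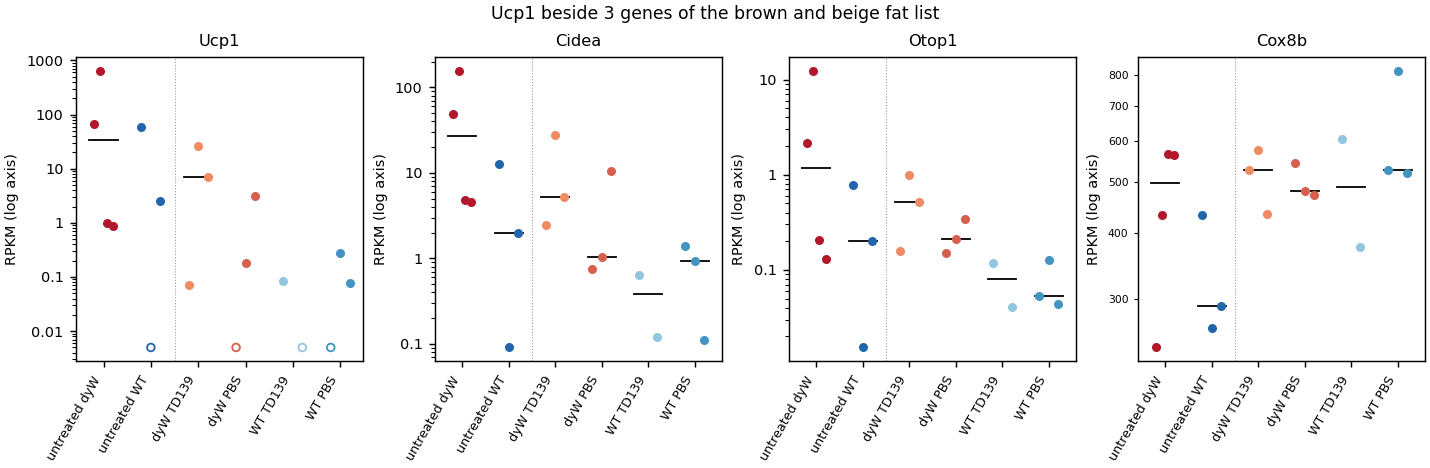
RPKM of Ucp1, Cidea, Otop1 and Cox8b on log axes, with 1 point per library, the group median as a bar and open circles for libraries with no Ucp1 read. Untreated dyW replicate 2 is the highest point for Ucp1 (638 RPKM), Cidea (156 RPKM) and Otop1 (12.3 RPKM), but not for Cox8b.

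The rest of the fat cell programme was read from lists of genes in the comparison of untreated dyW with untreated WT. There 24.7% of all genes tested were called higher, 25.1% were called lower and the median of all genes was 0.03. How the calls of these lists change without untreated dyW replicates 1 and 2 is not given here. Of 14 lipid droplet and lipolysis genes 4 rose and 0 fell, with a list median of 1.26. They were Mgll (1.31 ± 0.40; edgeR adjusted p = 0.0247), the last lipase of triglyceride breakdown, Aqp7 (1.40 ± 0.46; edgeR adjusted p = 0.0331), the glycerol channel, and the lipases Pnpla2 (1.38) and Lipe (2.14). Mgll ranged from 14.3 to 45.3 RPKM in untreated dyW and from 5.52 to 10.8 RPKM in untreated WT, with no overlap. The same pattern was shown by 51.3% of all genes tested. Of 16 fatty acid and triglyceride synthesis genes 3 rose and 2 fell, with a list median of 1.32. Pck1, which in fat makes glycerol for triglyceride, rose by 3.12 ± 1.01 (SE; edgeR adjusted p = 0.0314), and Slc2a4, the insulin-regulated glucose transporter that muscle fibres also make, fell by 0.72 ± 0.20 (SE; edgeR adjusted p = 0.0163). Pck1 spanned 9.92 to 258 RPKM in untreated dyW and 5.67 to 15.7 RPKM in untreated WT. The acyltransferases Dgat1 (1.64) and Dgat2 (1.86) were the other 2 that rose, and Lpin1 (-1.13) the other that fell.

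Of 12 adipogenic transcription factors and preadipocyte genes 4 rose and 2 fell, with a list median of 0.11. Rxrg, a retinoid receptor that pairs with nuclear receptors and is also made in muscle, fell by 1.69 ± 0.15 (SE; edgeR adjusted p = 1.77e-04), with 7.81 to 10.1 RPKM in untreated dyW and 18.3 to 20.5 RPKM in untreated WT. Ebf1, an early factor of the fat lineage, rose by 0.94 ± 0.12 (SE; edgeR adjusted p = 5.89e-04), with 3.65 to 4.17 RPKM in untreated dyW and 1.20 to 1.73 RPKM in untreated WT. Unlike Adipoq, Ebf1 and Rxrg varied little within untreated dyW. The other calls were Cebpa (1.93), Stat5a (0.58) and Dlk1 (3.21), the preadipocyte protein that regenerating muscle also makes, and Rxra (-0.86).

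Of 8 other secreted factors of fat cells 2 rose and 1 fell, with a list median of 1.40. Sfrp5, a secreted Wnt inhibitor, rose by 1.48 ± 0.29 (SE; edgeR adjusted p = 0.00366), Angptl4, an inhibitor of lipoprotein lipase, rose by 2.20 ± 0.52 (SE; edgeR adjusted p = 0.00820), and Nampt, an enzyme of NAD synthesis, fell by 0.93 ± 0.20 (SE; edgeR adjusted p = 0.00565). Of 9 partners of lipoprotein lipase and genes of fatty acid uptake 4 rose and 1 fell, with a list median of 0.61. Vldlr, a lipoprotein receptor, fell by 1.29 ± 0.20 (SE; edgeR adjusted p = 0.00109). Fabp5, a fatty acid carrier of macrophages and fat, rose by 1.68 ± 0.32 (SE; edgeR adjusted p = 0.00282), with 8.60 to 15.6 RPKM in untreated dyW and 1.58 to 4.39 RPKM in untreated WT. Angptl4, which is on both lists, Slc27a1 (1.22), a fatty acid transporter, and Gpihbp1 (0.63), which anchors Lpl to capillary endothelium, were the others that rose. On the receiving side, against 25.1% of all genes called lower, 2 of 4 receptors of adiponectin and leptin fell. They were Adipor1 (-0.60 ± 0.14; edgeR adjusted p = 0.00852) and Lepr (-0.51 ± 0.18; edgeR adjusted p = 0.0459), which in RPKM overlapped between the groups, at 40.5 to 45.2 RPKM in untreated dyW and 41.4 to 45.9 RPKM in untreated WT for Adipor1. On log2(RPKM + 0.1) with limma, where the median gene moved by 0.51, Adipor1 was at -0.052 and Lepr turned to 0.045. Of the 9 genes of these lists called lower by edgeR, 3 were also called on that scale, namely Rxrg, Vldlr and Ppargc1a. Lepr was the 1 of 26 called list genes whose direction turned under limma on RPKM, RLE or DESeq2.

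Under PBS no gene of these lists was called in dyW against WT by edgeR, where 2.68% of all genes were. The smallest p in the lists were those of Me1 (-0.87 ± 0.21; edgeR adjusted p = 0.0535), the NADPH-making malic enzyme, and Dlk1 (1.71 ± 0.42; edgeR adjusted p = 0.0551). Dlk1 ranged from 8.24 to 20.7 RPKM in dyW PBS and from 1.88 to 5.15 RPKM in WT PBS, and Me1 from 21.5 to 27.9 RPKM in dyW PBS and from 31.0 to 41.7 RPKM in WT PBS, each without overlap. Of all genes tested, 23.2% had every dyW PBS library above every WT PBS library, and the share for the opposite direction is not given here. Angptl4 (1.55 ± 0.47; edgeR adjusted p = 0.114), Cebpa (1.42 ± 0.43; edgeR adjusted p = 0.119) and Mlxipl (-0.70 ± 0.21; edgeR adjusted p = 0.110), the carbohydrate-response factor of lipid synthesis, followed after Dio2 of the brown fat list, given above. In the droplet list the smallest p were those of Hcar1 (1.72 ± 0.67; edgeR adjusted p = 0.237), the lactate receptor of fat cells, and Plin2 (0.39 ± 0.16; edgeR adjusted p = 0.276), the droplet coat of most tissues. Agt (0.45), Gpihbp1 (-0.42), Adipor1 (-0.32) and Adipor2 (-0.21) were the remaining genes with the smallest p of their lists, with edgeR adjusted p from 0.241 to 0.726. No gene of these lists was called in the comparisons of TD139 with PBS, in their interaction, or in the difference between cohorts.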

How the data were processed

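Quadriceps RNA was sequenced in 18 libraries, each with its own animal number, from 1 ug of RNA as 58 bp read pairs, per the labels' protocols. Nothing says more on how the animals were assigned, so p-values measure the spread between these libraries. The authors deposited whole-number counts of exon reads per gene and RPKM per gene for each library, per the file headers, and tables of log2 fold changes and FDR-adjusted p-values for 2 comparisons. The build was mm10, per the submitters' processing notes, and the aligner and counter are not given in the sources used here. Groups came from the library titles. Counts were fitted with edgeR 4.0.16 (R 4.3.3; TMM, filterByExpr with a minimum count of 10 and a total of 15, quasi-likelihood F-test, Benjamini-Hochberg adjustment over all genes tested, threshold 0.05). The SE is the log2 fold change over the root of F, and 95% intervals use the t quantile of the test. The untreated comparison used the 7 untreated libraries, the PBS and TD139 comparisons the 11 treated ones, and the difference between cohorts all 18. The fit was tested on simulated counts. Alternatives were DESeq2 1.42.0, RLE scaling, no filter beyond 1 read, limma 3.58.1 on log2(RPKM + 0.1) and log2(RPKM + 1), a sex term, unique reads, all 18 libraries in each fit, and each library left out. Tables were made with python 3.11.15, pandas 2.3.3, numpy 2.4.6 and scipy 1.17.1. Likeness to Adipoq used log2 CPM with a prior count of 2, computed from the deposited counts. Promoter sequences came from RefSeq (GRCm38.p6). The members and lists were chosen with earlier results of these data known. Named were the 10 genes, from each pathway list any gene past the threshold and the 2 with the smallest p in the comparisons of dyW with WT, and the 5 genes most like Adipoq, and any other gene was chosen after its values were seen. Intervals and floors of 3 reads cover counting error or the fit only.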

Additional observations from a re-analysis of the deposited data

Results flagged for a closer look

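The 26 series of values were each a gene or a summed marker list in a group of 4 libraries. In each, a single library was checked for standing far from the other 3. For normally distributed values chance alone gives this in about 1 in 20, and that share was not checked for RPKM. A library stood out in 5 series, each time untreated dyW replicate 2. Ucp1, the heat-producing uncoupling protein, was at 638 RPKM there, against 0.865 to 66.1 RPKM in the other 3 untreated dyW libraries. Elovl3, an elongase of very long fatty acids that brown fat makes in the cold, was at 19.1 RPKM, against 0.0175 to 1.10 RPKM. Otop1, a proton channel, was at 12.3 RPKM, against 0.129 to 2.17 RPKM. Gk, glycerol kinase, was at 4.98 RPKM, against 0.410 to 0.913 RPKM. Prdm16, a factor of the brown fat fate, was at 0.823 RPKM, against 0.377 to 0.449 RPKM. Across the series Prdm16 was not highest there, with 0.995 RPKM in untreated WT replicate 3 and 0.824 RPKM in WT PBS replicate 1. The 5 genes come from 1 library and are not independent of each other.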

How the results depend on the processing

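Limits first. Groups held 2 to 4 mice, and a few mice set the level of the fat cell genes. In the untreated comparison 2 of 10 genes were called, with 4 under DESeq2, 0 with sex as a term, 0 with untreated dyW replicates 1 and 2 both left out, and 0 to 6 when single libraries were left out. With those 2 libraries out, Pparg was -0.044, Ucp1 -4.89 and Adrb3 -0.76. Ucp1 ran from -0.14 to 6.53 as single libraries were left out. Over all settings and genes of that comparison, 134 of 160 values kept their direction and side of the threshold, 12 lost the call, 10 gained it and 4 reversed. Most of these values belong to genes that were not called to begin with. Fabp4 and Cfd, the 2 called genes, were each called in 10 of 16 alternative settings. In dyW PBS against WT PBS the count over all genes was 411 in the edgeR fit, 864 with DESeq2, 952 and 814 with limma on log2(RPKM + 0.1) and log2(RPKM + 1), 656 with all 18 libraries in the fit, and 125 to 601 with single libraries left out, and 0 of the 10 genes were called in each of these. Limma gave 0.66 and 0.10 for Lep and 0.20 and 0.18 for Lpl, where the RPKM scale shifts the median gene by 0.25. Leaving out single libraries gave -0.78 to 2.55 for Lep, -0.68 to 0.56 for Lpl, -0.013 to 0.75 for Fabp4, -0.066 to 1.07 for Pparg and -0.43 to 4.58 for Ucp1. In dyW TD139 against dyW PBS, DESeq2 called 4 genes in all, none of the 10, where edgeR called 0, and Plin1 was -0.16 and -0.070 with limma and -0.015 with the sex term. Leaving out single libraries there gave -1.20 to 0.31 for Adipoq, -0.29 to 0.54 for Fabp4, -0.81 to 0.69 for Plin1, -0.39 to 1.31 for Lep, -0.998 to 0.38 for Cfd, -1.70 to 0.36 for Cidec, -0.32 to 0.74 for Pparg and -1.07 to 0.24 for Adrb3. In WT TD139 against WT PBS, DESeq2 called 3 genes in all and Lpl ran from -1.17 to 0.065 as single libraries were left out, where a lone WT TD139 library is assumed to vary like the other groups. DESeq2 called 1 gene for the difference between the TD139 effects. For the difference between cohorts the count over all genes was 272 with edgeR, 1189 with DESeq2, 75 and 111 with limma, and 0 to 637 with single libraries left out. The cause of these shifts was not tested. No paired analysis was possible because each library carries its own animal number and the replicate numbers only follow accession order.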

Other observations

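The levels of 3 genes of fat metabolism and fat cell development across the groups are given here as values, chosen after they were seen. Dlk1, the preadipocyte protein that regenerating muscle also makes, was at 3.41 to 12.8 RPKM in untreated dyW and 0.330 to 0.792 RPKM in untreated WT. In the treatment cohort Dlk1 was at 9.49 to 14.97 RPKM in dyW TD139 and 8.24 to 20.7 RPKM in dyW PBS, against 2.85 to 5.06 RPKM in WT TD139 and 1.88 to 5.15 RPKM in WT PBS. For Dlk1 every dyW library was above every WT library of its cohort. Of all genes tested, 51.3% had every dyW library above every WT library when untreated, and 23.2% under PBS. Pck1, which makes glycerol for triglyceride in fat, overlapped between the genotypes in the untreated cohort. In the treatment cohort Pck1 overlapped between dyW TD139 and WT PBS, but not between dyW and WT under the same treatment. It was at 9.92 to 258 RPKM in untreated dyW and 5.67 to 15.7 RPKM in untreated WT, and at 1.88 to 25.1 RPKM in dyW TD139 and 3.81 to 27.7 RPKM in dyW PBS, against 0.724 to 0.855 RPKM in WT TD139 and 0.684 to 3.54 RPKM in WT PBS. Me1, the malic enzyme, spread from 25.8 to 105 RPKM in untreated dyW, which spans the 65.8 to 79.6 RPKM of untreated WT.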
